A study of Homo sapiens with 8 samples.

Results

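Chromatin bound by the kinase mTOR was examined at 8 genes for coregulators of nuclear receptors: NCOA1, NCOA2, NCOA3, EP300, CREBBP, MED1, NCOR1 and KDM1A. A peak was counted for a gene when the deposited annotation named that gene as nearest and its centre lay within 50 kb of a transcription start site (TSS) of it. Of 125713 peaks summed over the 4 peak lists, 67 met this rule, and they merged into 26 separate regions. The cells were LNCaP, an established androgen-responsive human prostate cancer line, with 1 library for each group. The groups, all on chromatin precipitated with an antibody to mTOR, were the FoxA1 hairpin with androgen (shFoxA1 R1881), the FoxA1 hairpin with vehicle (shFoxA1 EtOH), the empty hairpin vector with androgen (shEV R1881) and the empty vector with vehicle (shEV EtOH). Androgen was 10 nM of the synthetic agonist R1881 and vehicle was 0.1% ethanol, each for 24 h after all groups had spent 48 h in medium with 2% charcoal-stripped serum. FoxA1 is a pioneer factor, a protein that makes closed chromatin accessible, and it works with the androgen receptor in prostate cells. Peak lists hold no expression values, so neither the depth of the knockdown nor the identity of the line could be checked from them.

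Nuclear receptors such as the androgen receptor act on transcription through coregulators. Agonist-bound receptors recruit the steroid receptor coactivator family (NCOA1, NCOA2 and NCOA3), which brings in the histone acetyltransferases EP300 and CREBBP, while MED1 links receptors to the Mediator complex and RNA polymerase. NCOR1 is the scaffold of a histone deacetylase corepressor complex, and KDM1A removes methyl groups from histones as part of repressor complexes and also works with the androgen receptor. mTOR is best known as a cytoplasmic nutrient and growth-factor kinase, and part of it is found in the nucleus.

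The 4 promoters below are shown for the lists in which they carried a peak. MED1 and NCOR1 had a peak over the promoter in every list, and NCOA3 and CREBBP had one in both shFoxA1 lists and in neither shEV list. Each sequence is the 250 bases before the annotated start in the RefSeq table of GRCh38.p14, written 5′ to 3′ on the strand of the gene. Capitals mark matches to the 10 motifs searched.
MED1: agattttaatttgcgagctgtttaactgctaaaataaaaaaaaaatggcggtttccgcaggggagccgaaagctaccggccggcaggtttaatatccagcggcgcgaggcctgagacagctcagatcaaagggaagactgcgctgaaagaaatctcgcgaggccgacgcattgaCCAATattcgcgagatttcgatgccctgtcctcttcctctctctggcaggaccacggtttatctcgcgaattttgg
NCOR1: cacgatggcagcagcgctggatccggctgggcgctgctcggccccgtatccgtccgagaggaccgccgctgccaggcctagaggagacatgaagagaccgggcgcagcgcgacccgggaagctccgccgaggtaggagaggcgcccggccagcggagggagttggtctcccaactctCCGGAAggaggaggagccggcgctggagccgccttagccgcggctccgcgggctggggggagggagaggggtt
NCOA3: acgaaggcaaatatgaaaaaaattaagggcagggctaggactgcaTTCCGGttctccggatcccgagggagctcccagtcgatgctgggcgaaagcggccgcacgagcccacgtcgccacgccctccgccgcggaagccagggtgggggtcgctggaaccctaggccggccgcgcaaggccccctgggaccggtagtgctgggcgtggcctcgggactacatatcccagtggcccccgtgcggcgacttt
CREBBP: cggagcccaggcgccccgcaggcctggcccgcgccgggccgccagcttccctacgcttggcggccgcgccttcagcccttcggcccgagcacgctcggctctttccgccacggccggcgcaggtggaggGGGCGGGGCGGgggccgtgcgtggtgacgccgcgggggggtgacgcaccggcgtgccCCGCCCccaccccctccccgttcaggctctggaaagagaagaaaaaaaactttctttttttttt

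The MED1 sequence is chr17:39451264-39451513 (minus strand), and a peak covered 250, 250, 250 and 163 of its bases in shFoxA1 R1881, shFoxA1 EtOH, shEV R1881 and shEV EtOH. The NCOR1 sequence is chr17:16215535-16215784 (minus strand), with 250, 250, 250 and 237 bases covered. The NCOA3 sequence is chr20:47501637-47501886 (plus strand), covered over all 250 bases in both shFoxA1 lists and over 0 in both shEV lists. The CREBBP sequence is chr16:3880714-3880963 (minus strand), covered over 102 bases in shFoxA1 R1881, 139 in shFoxA1 EtOH and 0 in either shEV list. G and C made up 50.4% of the MED1 sequence, 72.4% of NCOR1, 66.4% of NCOA3 and 72.4% of CREBBP.

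Motifs were searched on both strands. The GC box GGGCGG, bound by SP and KLF factors, was found 3 times in the CREBBP promoter and is held by 42.6% of all 35116 promoter windows of the table at this length. The CCAAT box, bound by NF-Y, was found in MED1 (32% of all windows), and the ETS core CCGGAA in NCOR1 and NCOA3 (14.5%). None of the 4 sequences held the full androgen response element (0.00285% of windows), its half-site AGAACA (12.4%), the forkhead words TGTTTAC or TGTTTGC (6.09% for either), the receptor word TNAAGGTCA of the estrogen-related receptors (0.854%), the E-box CACGTG (6.34%), the cAMP response element TGACGTCA (1.65%) or the NRF1 palindrome (1.03%). The half-site lies within the full androgen element, and 2 copies of the GC box overlap in CREBBP. Among the 11 windows that the table holds for 7 of the 8 genes, the half-site occurred in 1, a second CREBBP start, and a forkhead word in 1, an internal NCOA1 start; neither window was under a peak.

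The 4 lists held 39570 peaks for shFoxA1 R1881, 35121 for shFoxA1 EtOH, 26074 for shEV R1881 and 24948 for shEV EtOH on chromosomes 1 to 22, X and Y. At the coregulator genes the numbers were 20, 20, 11 and 16. Read totals were not used here and sequencing depth is unknown, and more peaks in a list cannot be told apart from a deeper or more enriched library. A peak was found at 7 of the 8 genes in shFoxA1 R1881, 7 in shFoxA1 EtOH, 5 in shEV R1881 and 6 in shEV EtOH, against 51.6%, 49.1%, 37.5% and 36.5% of 20037 protein-coding genes. The coregulator genes are long, with a median of 155 kb against 24.1 kb for all coding genes, and the part of gene length in these counts was not tested. The median number of peaks per coregulator gene was 2, 2, 1 and 2 in the 4 lists, against 1, 0, 0 and 0 for coding genes.

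**Figure D1:**
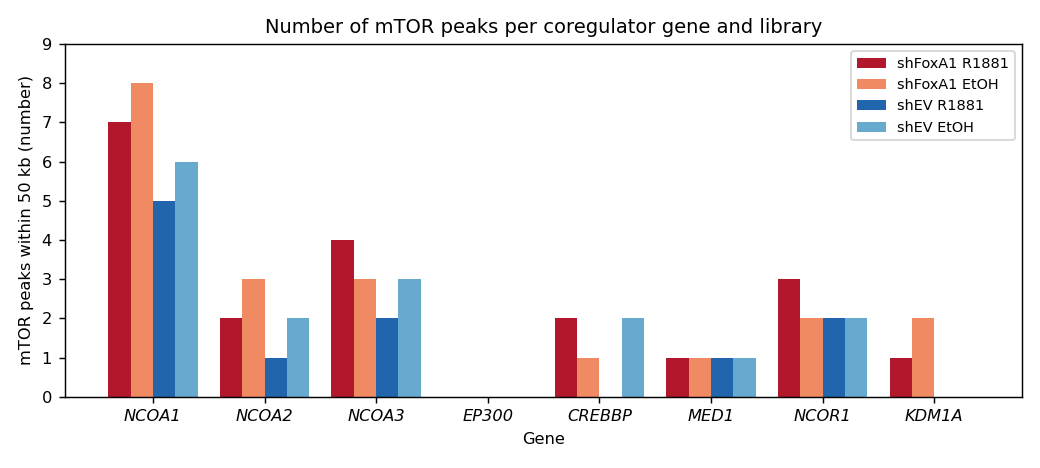
Bars give the number of mTOR peaks within 50 kb of a TSS for each coregulator gene (horizontal axis) in each of the 4 libraries. NCOA1 had the most in every library, from 5 to 8, and EP300 had 0 in every library.

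NCOA1 carried 7 peaks in shFoxA1 R1881, 8 in shFoxA1 EtOH, 5 in shEV R1881 and 6 in shEV EtOH, which merged into 9 regions, 3 of them present in every list. No other coregulator gene reached 5 peaks in any list. The highest-scoring region lay in intron 1 and was annotated to an Alu or L1 repeat (chr2:24540135-24540893 in shFoxA1 R1881). Its deposited scores were 269, 322, 238 and 251 in the 4 lists, at percentiles 92.3, 93.4, 90.9 and 91.1 of their own lists. A score is the authors' value for a peak, and it was compared only within its own list unless scores are said to be pooled. A second intron 1 region, in an L1PA6 element (chr2:24532556-24533011 in shFoxA1 R1881), scored 153, 123, 50 and 85. The remaining constant region, 41.6 to 41.9 kb upstream of the gene, was weaker, with scores of 34, 49, 34 and 67.

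Around the NCOA1 start sites the lists differed. A promoter peak centred 486 bp upstream of the first start was called in shEV EtOH (chr2:24490519-24491018, score 85), and an overlapping one in shFoxA1 R1881 (score 41), with none in shFoxA1 EtOH or shEV R1881. A separate peak over the next start, 74 to 75 bp from it, was called in shFoxA1 R1881 (chr2:24491738-24492165, score 27) and shFoxA1 EtOH (score 15) and in neither shEV list. So NCOA1 had a promoter peak in every list but shEV R1881. In shFoxA1 EtOH that was the peak with score 15 alone, the lowest score of the list (percentile 0.68). An L1PA12 region 10.7 to 10.8 kb upstream was also present in both shFoxA1 lists only, with scores of 65 and 94. An intron 1 region 36.4 to 36.5 kb from a TSS was present in both EtOH lists only (scores 42 in shFoxA1 EtOH and 34 in shEV EtOH). The remaining regions were each missing from 1 list: an L1MC3 region in intron 1 was missing from shEV EtOH (scores 65, 103 and 135 in shFoxA1 R1881, shFoxA1 EtOH and shEV R1881), and a MER52A region in intron 3 was missing from shFoxA1 R1881 (155, 50 and 42 in shFoxA1 EtOH, shEV R1881 and shEV EtOH).

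NCOA2, the second coactivator of the family, had 2 peaks in shFoxA1 R1881, 3 in shFoxA1 EtOH, 1 in shEV R1881 and 2 in shEV EtOH. Its 1 constant region lay in intron 1, 44.7 to 45 kb from a TSS, in an L1MB5 element, with scores of 232, 247, 157 and 191 (percentiles 90.7, 90.5, 83.9 and 87.2). The NCOA2 promoter was under a peak in shFoxA1 R1881 (score 27), shFoxA1 EtOH (42) and shEV EtOH (42) and not in shEV R1881. The promoter peak of shFoxA1 EtOH was 1379 bp wide, against 544 bp in shEV EtOH. A further intronic peak in an L2 element was called in shFoxA1 EtOH alone (score 27).

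NCOA3, often amplified or overexpressed in hormone-dependent cancers, had 4 peaks in shFoxA1 R1881, 3 in shFoxA1 EtOH, 2 in shEV R1881 and 3 in shEV EtOH. A region in intron 1, 19.4 to 19.6 kb from the TSS and annotated to a HERVIP10FH or LTR10F element of the ERV1 family (chr20:47520907-47521888 in shFoxA1 EtOH), was present in all lists with scores of 186, 401, 202 and 115. The score of 401 was the highest of any coregulator peak in the shFoxA1 EtOH list and stood at percentile 95.2 of it. A second intron 1 region about 25.1 kb from the TSS was also in every list (scores 34, 42, 42 and 67). The promoter peaks described above scored 49 in shFoxA1 R1881 and 27 in shFoxA1 EtOH. Single-list peaks lay 7.75 kb upstream in shFoxA1 R1881 (score 49) and in an LTR9B element 20.7 kb downstream in shEV EtOH (score 20).

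The distance rule cut through NCOA2 and NCOA3. The peaks just inside it were those of NCOA2 at 45 kb, and the ones just outside were at NCOA3, 53.1 kb from its TSS. NCOA3 had 4 intronic regions beyond the limit, of which the one 69.8 kb from the TSS was in every list with scores of 269, 335, 104 and 191. NCOA2 had 3 beyond it, each in a single list.

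**Figure D2:**
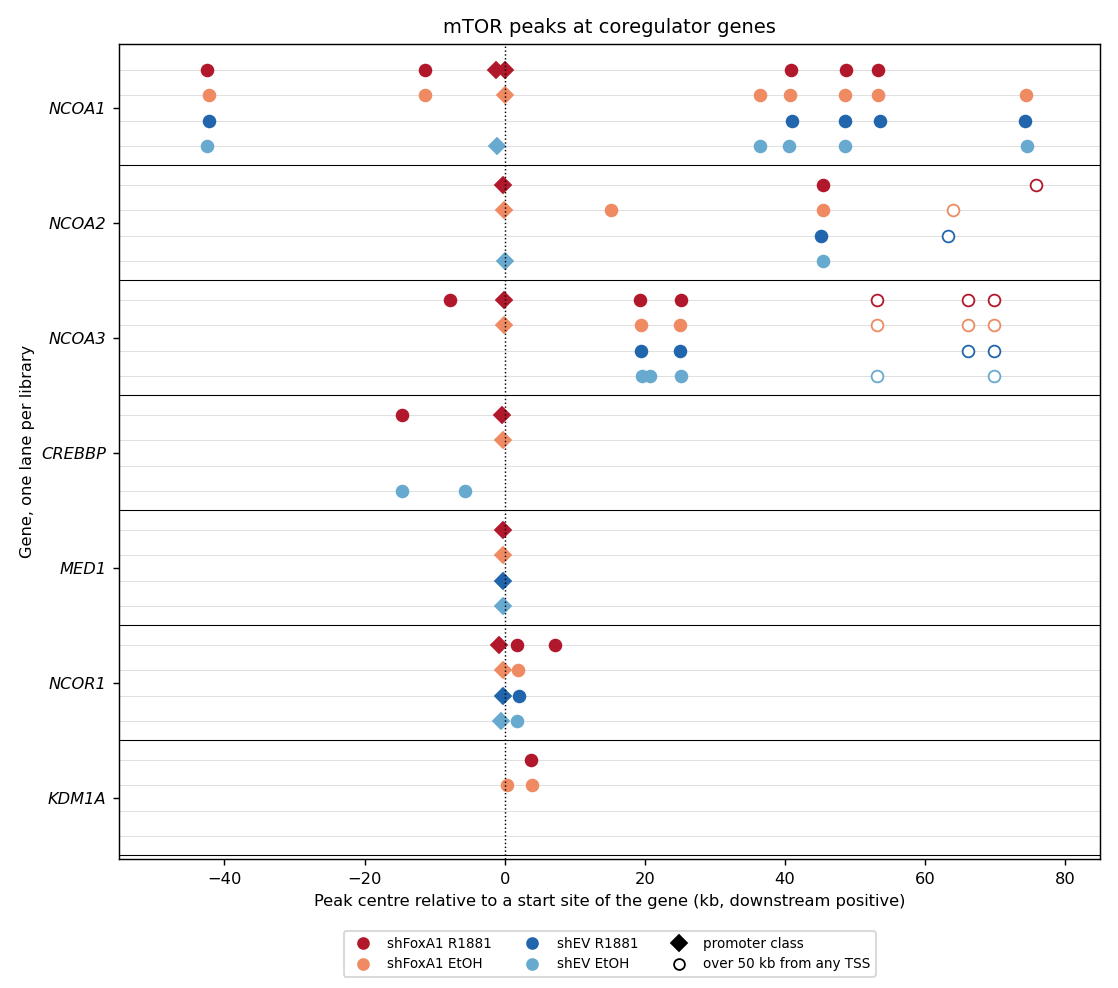
Each mark is an mTOR peak, placed by the distance of its centre from a start site of the gene (horizontal axis, kb, downstream positive), with the 4 libraries as lanes within each gene, diamonds for the promoter class and open circles for peaks over 50 kb from any TSS. Distances in the text are to the nearest TSS of any transcript, so NCOA1 peaks at 53 and 74 kb here lie 39.1 to 39.4 kb and 18.1 to 18.4 kb from an internal start; EP300 has no mark, and 1 NCOA3 peak at 141 kb is beyond the axis.

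The acetyltransferase genes had fewer peaks than NCOA1 or NCOA3 in every list. EP300 had no assigned peak in any list. A peak did lie close to it, centred 1105 bp before the EP300 start in shFoxA1 R1881 (chr22:41091220-41091753, score 65) and 1043 bp before it in shFoxA1 EtOH (chr22:41091352-41091746, score 66), with none there in either shEV list. The deposited annotation gives these to MIR1281, a microRNA gene whose start lay nearer (signed distances of -1027 and -964 bp), so they do not count among the 67. CREBBP, the close relative of EP300, had 2 peaks in shFoxA1 R1881, 1 in shFoxA1 EtOH, 0 in shEV R1881 and 2 in shEV EtOH. Its promoter peak scored 27 in shFoxA1 R1881 and 49 in shFoxA1 EtOH. An MLT1C element 14.6 to 14.7 kb upstream had a peak in shFoxA1 R1881 (chr16:3895071-3895599, score 122) and in shEV EtOH (chr16:3895185-3895551, score 115), and in neither of the other lists. An L1PA3 element 5.64 kb upstream had 1 in shEV EtOH (score 27). No CREBBP region was present in more than 2 lists.

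MED1 had a single peak in each list, always over the promoter and centred 266, 258, 282 and 314 bp upstream of the TSS in shFoxA1 R1881, shFoxA1 EtOH, shEV R1881 and shEV EtOH. Scores were 34, 42, 58 and 67, at percentiles 19.2, 27.7, 46.2 and 54.1, and widths 683, 937, 768 and 453 bp. MED1 and NCOR1 were the only coregulator genes with a promoter peak in all 4 lists.

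NCOR1, the corepressor scaffold, had 3, 2, 2 and 2 peaks in the 4 lists. Its promoter peaks scored 92, 75, 42 and 95. In shFoxA1 R1881 the peak was 1959 bp wide (chr17:16215341-16217299) and reached the promoter of PIGL, the neighbouring gene, which encodes an enzyme of glycolipid anchor synthesis. The annotation assigns this peak to NCOR1, with its centre 786 bp upstream of the NCOR1 TSS. Its promoter label, unlike those of the other lists, names a PIGL transcript. In shFoxA1 EtOH there were separate peaks for NCOR1 (chr17:16215520-16216015, 496 bp) and PIGL (chr17:16216928-16217693, score 58), and in shEV R1881 and shEV EtOH the NCOR1 peak was 996 and 978 bp wide. A second region in intron 1, 1.81 to 1.97 kb from the TSS, was in every list with scores of 65, 113, 42 and 58. Another, in an Alu element of intron 1, was called in shFoxA1 R1881 only (score 34). Further regions lie deep inside NCOR1 but are assigned to SNORD163, a small nucleolar RNA gene: 1 lying 100132 to 100400 bp from the NCOR1 start was in all lists (scores 49, 84, 58 and 50), and 1 lying 44803 to 44844 bp from it was in every list but shFoxA1 R1881 (42, 50 and 95 in shFoxA1 EtOH, shEV R1881 and shEV EtOH).

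KDM1A, the demethylase gene, had 1 peak in shFoxA1 R1881, 2 in shFoxA1 EtOH and 0 in either shEV list. An intron 1 region in an L1MB7 element, 3.79 to 3.86 kb from the TSS, scored 34 in shFoxA1 R1881 and 49 in shFoxA1 EtOH. An exon 1 peak 385 bp from the TSS (chr1:23019599-23020108) was called in shFoxA1 EtOH only, with a score of 21, at percentile 3.76.

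**Figure D3:**
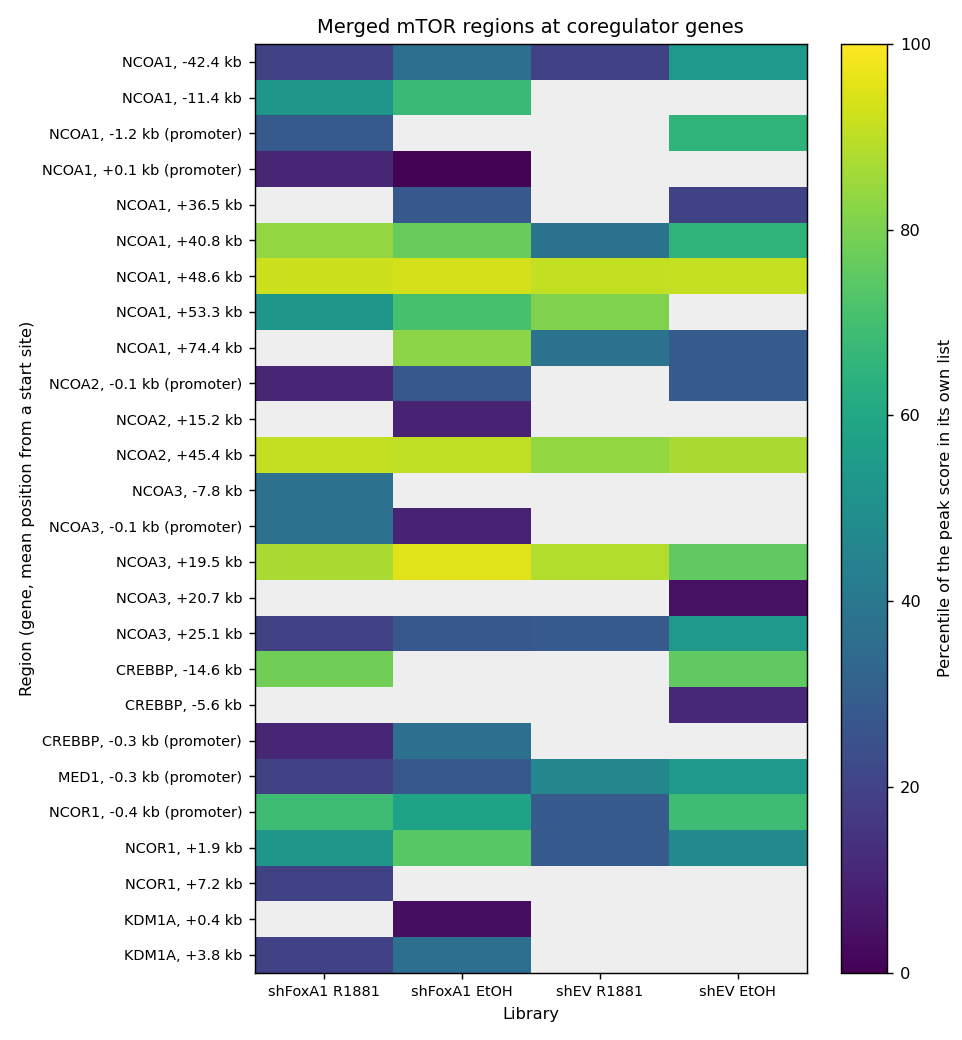
Each row is 1 of the 26 merged regions and each column a library; colour gives the percentile of the peak score in its own list, and grey means no peak. The rows at NCOA1 +48.6 kb, NCOA2 +45.4 kb and NCOA3 +19.5 kb are filled in all 4 columns at percentiles from 75.5 to 95.2, and 5 of the 7 promoter rows are grey in shEV R1881.

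The 19 promoter peaks held from 51.8% to 77.7% G and C. The deposited annotation gives each peak a single label, and a peak of the promoter class carries no repeat label in it, so repeats under promoter peaks are not counted. Of the 47 peaks outside promoters and exons, 44 were annotated to repeats, 24 of them LINE, 10 LTR and 10 SINE elements, with 30.2% to 53.6% G and C. How well reads map in repeats was not assessed. Pooled over the 4 lists, promoter scores ran from 15 to 95, with a median of 42, and those of the 47 others from 20 to 401, with a median of 67. A region found in several lists counts once for each. Read within their own lists, 5 of the 19 and 27 of the 47 stood above the middle. Repeats held 65%, 60%, 63.6% and 75% of coregulator peaks in the 4 lists, beside 50.8%, 50%, 58.2% and 58.1% of all peaks within 50 kb of a TSS.

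**Figure D4:**
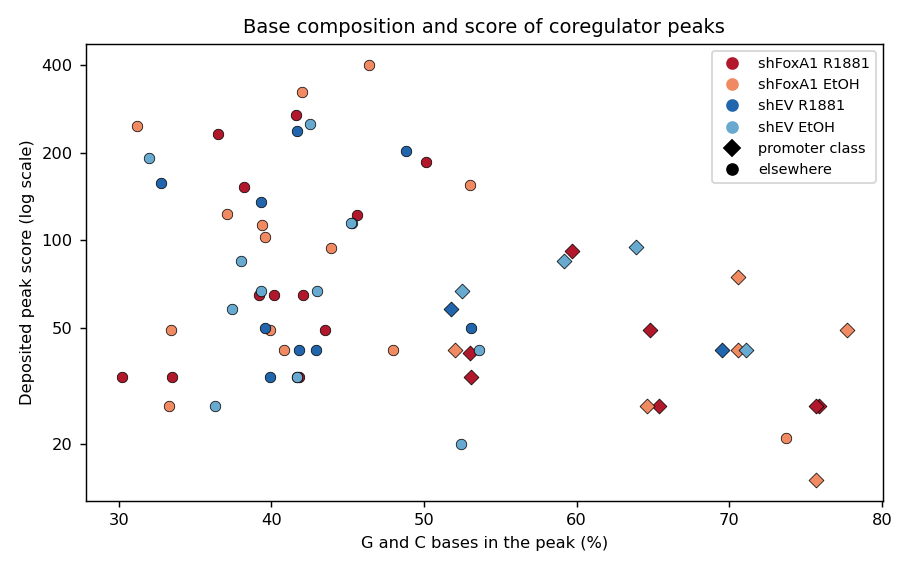
Each point is 1 of the 67 peaks, with its G and C content (horizontal axis, %) and its deposited score (vertical axis, log scale), coloured by library. Diamonds, the promoter class, lie at 51.8% or more, and every score above 95 belongs to a circle, a peak elsewhere.

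A promoter peak was found at 6 of the 8 genes in shFoxA1 R1881, 6 in shFoxA1 EtOH, 2 in shEV R1881 and 4 in shEV EtOH. The shFoxA1 EtOH count includes the NCOA1 peak at the lowest score of that list (15). Over all coding genes the shares were 18.5%, 18.6%, 9.79% and 10.3%, so both shFoxA1 lists stood above both shEV lists genome-wide as well as here. Over all peaks within 50 kb of a TSS, 4426, 4426, 2321 and 2446 were of the promoter class. Of the 19 coregulator regions outside promoters, 13, 14, 9 and 12 were present in the 4 lists. All but 2 of the promoter peaks, both in shEV EtOH, fell outside the 10000 highest-scoring peaks of their list. The 10000 are a larger part of the shEV EtOH list (24948 peaks) than of the shFoxA1 R1881 list (39570). The NCOR1 promoter peak stood at percentile 69.1 in both of these lists, and only the shEV EtOH one was among the 10000.

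The first pair asks which coregulator peaks appear or disappear with androgen in cells with the FoxA1 hairpin. A peak is called gained when it is in the first-named library and nothing in the other overlaps it by at least 1 bp, and lost in the opposite case. R1881 with shFoxA1 was accompanied by 4 gained of 20 peaks and 4 lost of 20, against 44.1% gained and 35.8% lost over all peaks within 50 kb of a TSS. The member shares were 20% for each direction (exact Clopper-Pearson 95% interval 5.73 to 43.7%, counting error only; peaks of 1 gene are not independent). The gained peaks were 1 each at NCOA1 (first promoter), NCOA3, CREBBP (MLT1C element) and NCOR1. The lost peaks were 2 at NCOA1, 1 at NCOA2 and 1 at KDM1A.

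With the empty vector, R1881 was accompanied by 1 gained of 11 peaks and 6 lost of 16, against 45.9% and 42.1% over all peaks. The share gained was 9.09% (0.23 to 41.3%) and the share lost 37.5% (15.2 to 64.6%). These intervals too cover counting error only, and peaks of 1 gene are not independent. The 1 gained peak was the L1MC3 region of NCOA1 (score 135), and with no distance limit 4 peaks were gained. The 6 lost peaks were 2 at NCOA1 (first promoter and intron 1), 2 at CREBBP, 1 at NCOA2 (promoter) and 1 at NCOA3. MED1 and NCOR1 gained and lost none. None of the 26 regions was present in the R1881 lists of both hairpins while missing from their EtOH lists, a pattern held by 5.37% of the 38284 merged regions within 50 kb of any TSS, and 1 had the reverse pattern (2.79%). For comparison, the known androgen targets KLK3, FKBP5 and TMPRSS2 had 3, 3 and 4 peaks in shFoxA1 R1881, 3, 2 and 3 in shFoxA1 EtOH, 2, 3 and 2 in shEV R1881, and 1, 1 and 0 in shEV EtOH.

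The other pairs compare the FoxA1 hairpin with the empty vector, and each shares libraries with the androgen pairs. With R1881, 10 of 20 peaks were gained in shFoxA1 and 1 of 11 shEV peaks was lost, against 54.2% and 26.1% over all peaks. The gained peaks were 3 at NCOA1, 2 at NCOA3, 2 at CREBBP and 1 each at NCOA2, NCOR1 and KDM1A. The 1 lost peak became 3 with no distance limit, and 3 when an overlap of at least 0.5 of the peak was required. With EtOH, 8 of 20 were gained and 4 of 16 lost, against 50.8% and 26.2%. The gained ones were 3 at NCOA1, 2 at KDM1A and 1 each at NCOA2, NCOA3 and CREBBP; the lost ones were 2 at CREBBP and 1 each at NCOA1 and NCOA3. The gained shares were 50% (27.2 to 72.8%) with R1881 and 40% (19.1 to 63.9%) with EtOH, with the same limit on the intervals as in the androgen pairs.

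Over all lists, 9 of the 26 regions were present in every library, beside 18.9% of regions near genes, and 5 in both shFoxA1 lists only, beside 7.83%. The 5 were at NCOA1 (2), NCOA3, CREBBP and KDM1A, and 3 of them were promoters. The NCOA1 promoter peak among them scored 15 in shFoxA1 EtOH, the lowest score of that list. No region was shared by both shEV lists only (0.794%), and none was found in shEV R1881 alone (6.75%). In a single list, 2 regions were found in shFoxA1 R1881 (20.5% of regions near genes), 2 in shFoxA1 EtOH (14.7%) and 2 in shEV EtOH (5.72%). Missing from 1 list were 1 region in shEV EtOH (4.77%), 1 in shEV R1881 (5.28%) and 1 in shFoxA1 R1881 (1.44%), with 0 missing from shFoxA1 EtOH alone (1.41%). The CREBBP MLT1C region and the first NCOA1 promoter made up the 2 found in shFoxA1 R1881 and shEV EtOH (2.03%), and 0 were found in shFoxA1 EtOH and shEV R1881 only (1.68%).

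**Figure D5:**
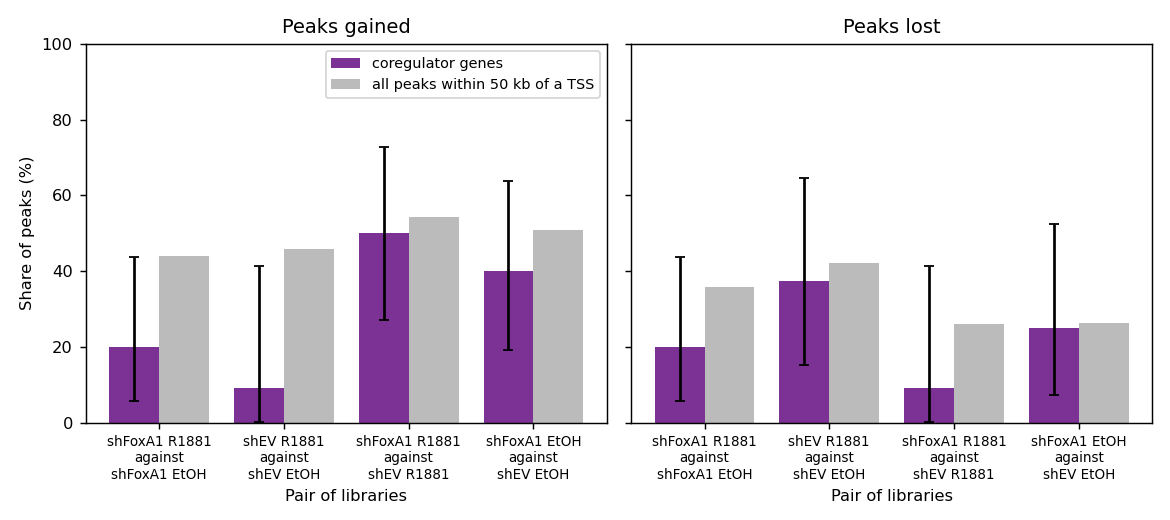
Bars give the share of peaks (vertical axis, %) gained (left) or lost (right) in each pair of libraries, for the coregulator genes with exact 95% intervals and for all peaks within 50 kb of a TSS. The coregulator bars for gain with R1881 stand at 20% and 9.09%, beside 44.1% and 45.9% of all peaks; the intervals cover counting error only and treat peaks of 1 gene as independent, which they are not.

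A wider list of 44 other coregulator genes gives the setting. A peak was present at 36, 34, 30 and 30 of them in shFoxA1 R1881, shFoxA1 EtOH, shEV R1881 and shEV EtOH; their median length was 86.3 kb. By class, all 5 histone demethylase genes and all 5 chromatin remodelling genes had a peak in every list, while 7, 6, 5 and 6 of 10 corepressor complex genes, 6, 6, 5 and 5 of 8 Mediator genes, 8, 8, 6 and 6 of 9 coactivator genes and 5, 4, 4 and 3 of 7 acetyl- and methyltransferase genes did. No peak in any list was found at 8 of the 44. A promoter peak was found at 20, 21, 14 and 16 of the 44 in the 4 lists, beside 18.5%, 18.6%, 9.79% and 10.3% of coding genes. With shFoxA1, R1881 was accompanied by 23 gained of 73 peaks and 26 lost of 77, against 44.1% and 35.8% over all peaks within 50 kb of a TSS. With shEV the counts were 21 gained of 47 and 26 lost of 52, against 45.9% and 42.1%. In shFoxA1 against shEV, 40 of 73 peaks were gained and 13 of 47 lost with R1881, against 54.2% and 26.1%. With EtOH, 34 of 77 were gained and 8 of 52 lost, against 50.8% and 26.2%.

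The strongest peaks of that list scored above those of the 8 genes. In shFoxA1 R1881 they included peaks at the promoter of the deacetylase gene HDAC1 (466) and upstream of the Mediator kinase gene CDK8 (466). In shFoxA1 EtOH they were at the promoter of NCOA7 (629), upstream of CDK8 (484) and in the first exon of the remodeller gene ARID1A (456). In shEV R1881 CDK8 (366) and NCOA7 (339) were among them, and in shEV EtOH NCOA7 (520) and CDK8 (289). The CDK8 peak, 11.3 kb upstream, lay in an L1 element and was among the 3 highest-scoring in every list.

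The number of peaks in the 4 lists was used to find coding genes with a profile like that of each coregulator gene, by the sum of absolute differences in peak number. NCOA1 (7, 8, 5 and 6) was matched exactly by 1 gene, the zinc-finger gene ZNF695. NCOA3 (4, 3, 2 and 3) was matched exactly by 9 coding genes, CREBBP by 16, NCOA2 by 30, NCOR1 by 76 and MED1 (1 in each list) by 1041.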

How the data were processed

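The samples were 4 mTOR chromatin immunoprecipitation libraries and 4 input libraries from LNCaP cells, 1 library per group; the inputs were not analysed here. Sequencing was paired-end with 150 bp reads, per the labels. Per the submitters' processing notes, reads and peaks on hg38 involved BWA 0.7.12, MACS2, HOMER 4.11.1, Trimmomatic 0.36, deepTools 3.5.0 and Picard 2.0.1, with no role or order stated. Per the file headers, each list is HOMER peak annotation output, and peaks were called per library. The peak score is the deposited value of the authors, and neither its definition nor the caller's control or threshold is stated. G and C content, deposited as a fraction per peak, was printed as a percentage. Nearest gene, class and distance to the TSS were used as deposited.

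Peaks on chromosomes 1 to 22, X and Y were used with Python 3.11.15 and pandas 2.3.3, and the overlap code was tested on simulated data. Peaks sharing at least 1 bp across lists were merged into regions. The 20037 coding genes and the promoter sequences come from RefSeq tables of GRCh38.p14; start sites implied by the deposited distances agreed to within 1 bp for 5 of the 7 genes with peaks, and NCOA1 and NCOA2 use further starts. With 1 library per group there is no p-value. Genes and lists were chosen with earlier results of these data known. Of the other coregulators, those with the 3 highest-scoring peaks in each list are named, except for 1 item that is not reported here; genes with a like profile are named where there are 3 or fewer, for genes with 4 or more peaks in all. Alternatives tried were a 10 kb limit, no limit, the 10000 highest-scoring peaks, no repeats, an overlap of at least 0.5 of the peak and a 1 kb gap.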

Additional observations from a re-analysis of the deposited data

Results flagged for a closer look

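In 2 regions the R1881 pairs of the 2 hairpins went opposite ways; with 1 library per group the difference was not tested. The upstream MLT1C region of CREBBP was gained with R1881 in shFoxA1 and lost with R1881 in shEV, and the first promoter region of NCOA1 did the same. Scores in shFoxA1 R1881 and shEV EtOH were 122 and 115 at CREBBP, and 41 and 85 at NCOA1. Of all merged regions within 50 kb of a TSS, 2.03% were found in these 2 lists only. By number of peaks, R1881 minus EtOH was 1 in shFoxA1 and -2 in shEV at CREBBP, and 1 in shFoxA1 and -1 in shEV at NCOA3.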

How the results depend on the processing

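Counts are given for shFoxA1 R1881, shFoxA1 EtOH, shEV R1881 and shEV EtOH in this order, and gains and losses for R1881 in shFoxA1, R1881 in shEV, the FoxA1 hairpin in R1881 and the FoxA1 hairpin in EtOH. The values reported were 20, 20, 11 and 16 peaks at 7, 7, 5 and 6 genes, 4, 1, 10 and 8 gained and 4, 6, 1 and 4 lost. With a 10 kb limit there were 11, 9, 3 and 6 peaks at 7, 7, 2 and 5 genes, 3, 0, 8 and 5 gained and 1, 3, 0 and 2 lost. With no limit the 4 gains were 5, 4, 12 and 10 and the losses 5, 7, 3 and 4, so R1881 in shEV had 4 gains in place of 1. Among the top 10000 peaks by score there were 5, 6, 4 and 7 peaks at 4, 4, 3 and 5 genes, 1, 1, 2 and 2 gained and 2, 4, 1 and 3 lost. The 10000 are a larger part of the shorter shEV lists. Without repeats there were 7, 8, 4 and 4 peaks at 6, 7, 3 and 4 genes, 1, 2, 5 and 5 gained and 2, 2, 2 and 1 lost. This setting also drops overlapping peaks whose repeat label differs between lists: both shEV gains, at NCOA1 and NCOR1, overlap shEV EtOH peaks labelled as repeats, and their regions were present in all 4 lists. With an overlap of at least 0.5 of the peak the losses were 6, 8, 3 and 5, and with a peak within 1 kb counted as shared they were 4, 5, 1 and 2. Of 16 results, 11 changed by more than 1.5-fold with the 10 kb limit, 11 with the top 10000 and 13 without repeats. With no limit 2 of 16 did, and 1 of 8 with each overlap setting. No shares over all peaks are given for these settings, so their counts have no background beside them. Members with a promoter peak numbered 6, 6, 2 and 4, 6, 7, 2 and 4 by a start within 1 kb and 0, 0, 0 and 2 among the 10000 highest-scoring peaks; these alternatives were chosen after seeing the data. Depth is unknown, so absence from a list does not show absence of mTOR. No paired analysis was possible because the labels give no replicate numbers and each group is 1 library.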
